A study of Homo sapiens with 12 samples.

Results

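The genes described are the protein coding genes of human chromosome 19 whose symbol starts with ZNF. The annotation held 249 of them, and 247 had an identifier in the count files. A gene was kept when its reads over all 12 libraries came to 10 or more, ZNF114 being left out, which gave 175 members among 57820 gene identifiers. The RNA came from a pair of established lines grown from human esophageal squamous carcinomas, TE10 and Kyse410. Each had been stably infected with a construct for a short hairpin (shRNA) that targets UHRF1 or for a scramble control, so the controls carry an integrated construct as well. The 4 groups (TE10 with UHRF1 shRNA, TE10 with scramble, Kyse410 with UHRF1 shRNA, Kyse410 with scramble) had 3 libraries each. The labels describe the replicates at the step of library construction, and the spread that the p-values rest on may therefore be technical. Each line stands for a single tumour, and the labels name a single hairpin construct for UHRF1.

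ZNF genes encode proteins with rows of C2H2 zinc fingers, short folds that hold a zinc ion and read DNA. Most of those on chromosome 19 also carry a KRAB domain, which recruits TRIM28 (KAP1) and, through it, the histone methyltransferase SETDB1, and many of these proteins silence retrotransposons. The genes arose by tandem duplication, lie side by side in clusters and are similar in sequence. UHRF1 reads hemimethylated DNA and trimethylated histone H3 lysine 9 and brings the maintenance methyltransferase DNMT1 to replicated DNA. Promoters of several chromosome 19 ZNF genes are known to become methylated in carcinomas.

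The targeted gene was lower in every shRNA library. UHRF1 stood at 85.9 ± 3.495 CPM (mean ± SD, n = 3) against 178.5 ± 5.34 in TE10 and at 42.5 ± 0.892 against 99.1 ± 3.47 in Kyse410, where CPM is the read count relative to the library total after TMM scaling, the usual normalisation of edgeR. The libraries held 7857662 to 12005229 reads in genes. HTSeq set aside 5.49 to 6.87% of the reads of a library as not uniquely aligned and 1.38 to 1.98% as fitting more than 1 gene, and such reads are missing from the counts of near-identical genes. All 8 squamous markers were detected, though PKP1 had only 30 reads over the 12 libraries. They summed to 323.1 to 1011 CPM per library, while the 4 blood markers summed to at most 0.574 CPM. In Kyse410 scramble SFN stood at a mean of 198.1 CPM and TP63 at 97.5, but KRT5 at only 1.14. Of the fibroblast genes COL1A1 was present in all groups at means of 42.8 to 154.4 CPM, and DCN and LUM were at 0 in every group but TE10 with shRNA, where they stood at 0.0426 and 0.216 CPM. The squamous markers moved with the groups, summing to 993.4 to 1011 CPM with the scramble and 630.5 to 663.7 with the shRNA in TE10. In Kyse410 they summed to 323.1 to 332.3 and 440.0 to 466.4 CPM. Their members went both ways there, with SFN at means of 198.1 CPM under the scramble and 310.7 under the shRNA, and KRT14 at 4.39 and 1.30 (log2 change -1.79, adjusted p = 1.29e-08). Their part in the results was not tested. In bulk RNA, fewer cells that express a gene and less RNA per cell cannot be told apart.

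Promoters of 155 members were found in the RefSeq table of GRCh38.p14, each covering 250 bases before to 50 bases after a gene's start. They held a median of 21 CG pairs, the sites at which UHRF1 and DNMT1 act, against 14 over all 35116 promoters. The latter were not limited to coding or expressed genes, so the sets are unlike. The following 6 are shown because the results turn on their genes, with CG pairs in capitals. ZNF772 had the largest rise in each line among members at 1 CPM or more whose groups did not overlap, ZNF446 and ZNF556 the largest differences between the lines, ZNF555 and ZNF14 the largest falls, and ZNF667 had no read in any library. The last 3 were chosen after their values were seen.
ZNF772 (chr19:57477517-57477816, minus strand, 16 CG pairs): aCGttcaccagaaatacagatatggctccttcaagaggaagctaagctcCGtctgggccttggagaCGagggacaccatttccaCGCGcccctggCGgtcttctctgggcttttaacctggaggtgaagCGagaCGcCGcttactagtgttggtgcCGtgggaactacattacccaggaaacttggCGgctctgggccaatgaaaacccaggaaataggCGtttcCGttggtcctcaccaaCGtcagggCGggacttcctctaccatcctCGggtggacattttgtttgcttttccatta
ZNF446 (chr19:58476102-58476401, plus strand, 33 CG pairs): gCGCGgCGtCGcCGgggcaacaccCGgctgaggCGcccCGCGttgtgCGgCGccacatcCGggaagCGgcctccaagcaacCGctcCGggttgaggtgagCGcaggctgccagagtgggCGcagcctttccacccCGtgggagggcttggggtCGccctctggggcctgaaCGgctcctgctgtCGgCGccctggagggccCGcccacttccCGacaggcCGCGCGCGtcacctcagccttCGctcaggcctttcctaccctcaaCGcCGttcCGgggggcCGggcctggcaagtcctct
ZNF556 (chr19:2867085-2867384, plus strand, 8 CG pairs): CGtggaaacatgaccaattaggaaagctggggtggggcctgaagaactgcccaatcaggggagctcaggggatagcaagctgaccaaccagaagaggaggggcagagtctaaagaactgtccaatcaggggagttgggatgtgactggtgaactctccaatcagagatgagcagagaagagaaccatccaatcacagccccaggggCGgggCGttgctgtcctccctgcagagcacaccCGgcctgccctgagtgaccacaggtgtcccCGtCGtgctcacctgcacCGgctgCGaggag
ZNF555 (chr19:2841225-2841524, plus strand, 25 CG pairs): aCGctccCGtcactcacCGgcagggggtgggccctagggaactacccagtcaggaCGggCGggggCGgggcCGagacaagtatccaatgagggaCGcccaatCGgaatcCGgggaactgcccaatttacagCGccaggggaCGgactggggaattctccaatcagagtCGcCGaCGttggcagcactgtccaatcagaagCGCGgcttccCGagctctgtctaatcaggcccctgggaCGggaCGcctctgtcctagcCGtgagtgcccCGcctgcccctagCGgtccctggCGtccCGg
ZNF14 (chr19:19733063-19733362, minus strand, 16 CG pairs): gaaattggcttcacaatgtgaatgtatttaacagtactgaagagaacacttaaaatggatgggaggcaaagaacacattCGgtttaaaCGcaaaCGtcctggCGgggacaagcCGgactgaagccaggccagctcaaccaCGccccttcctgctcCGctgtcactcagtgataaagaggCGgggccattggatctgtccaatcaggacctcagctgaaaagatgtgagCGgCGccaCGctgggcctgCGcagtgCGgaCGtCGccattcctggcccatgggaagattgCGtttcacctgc
ZNF667 (chr19:56477296-56477595, minus strand, 42 CG pairs): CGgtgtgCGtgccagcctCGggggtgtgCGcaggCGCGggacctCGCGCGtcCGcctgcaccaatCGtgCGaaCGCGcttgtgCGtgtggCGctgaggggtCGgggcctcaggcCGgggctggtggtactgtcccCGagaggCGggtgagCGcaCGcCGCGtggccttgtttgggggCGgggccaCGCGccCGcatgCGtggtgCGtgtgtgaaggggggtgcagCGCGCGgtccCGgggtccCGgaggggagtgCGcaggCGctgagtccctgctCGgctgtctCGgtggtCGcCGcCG

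ZNF667, without a read, had the promoter richest in CG pairs of the 6, with 42 in 300 bases, and that of ZNF556 had the fewest, with 8. ZNF667 does not stand for the weakly expressed genes. The chromosome 19 ZNF genes under 10 reads had a median of 17 CG pairs over 60 promoters, against 21 in members. Copies of ccaatca, which contains the CCAAT box, recur in the promoters of ZNF556 and ZNF555, neighbouring genes of the short arm. After this was noticed, the motif CCAATCA was counted on both strands in every promoter, overlapping copies included. It occurred in 6.95% of all promoters and in 24.5% of the members' promoters. Among members of the short arm 30 of 46 promoters (65.2%) held it and 13 held at least 2 copies, against 8 of 109 (7.34%) and 0 on the long arm. ZNF556 had 4 copies, ZNF555 2 and ZNF14 1, and the other 3 printed promoters had none. Promoters of tandem copies share their ancestry, so these counts are not independent, and a match is not a binding site.

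Of the 247 genes, 71 had fewer than 10 reads in all 12 libraries together, and 36 of these had no read among 113550138 gene reads. With no read, a level of up to 0.0264 CPM (3 reads over all libraries, counting error only) is allowed. Counting ZNF114, 71.3% of the chromosome 19 ZNF genes had 10 reads or more, against 85.3% of the coding ZNF genes elsewhere, 74.4% of the other coding genes of chromosome 19 and 73.2% of all coding genes. At the limit, ZNF738, ZNF564 and ZNF763 were kept with 11 reads each and ZNF404 with 14, while ZNF439 and ZNF492 were left out with 8 each and ZNF66 and the read-through locus ZNF559-ZNF177 with 6 each.

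Genes under 10 reads were often neighbours. In gene order, 48 of the 71 lay in 8 unbroken runs of at least 3. The longest had 11 genes, from ZNF43 to ZNF730, with 17 reads in all 12 libraries. ZNF415, ZNF347, ZNF665 and ZNF677 formed a run without a read, and the 7 genes from ZNF582 to ZNF835, among them ZNF667, ZNF471 and ZNF71, had 4 reads together. The run from ZNF93 to ZNF66 held ZNF93, known as a repressor of LINE-1 elements, which had 1 read. The limit of 10 reads counted the shRNA libraries too, so low counts with the shRNA follow from the choice of these genes. Over the 71 genes and 3 libraries a group, 28 reads were counted in TE10 with shRNA and 11 with scramble. In Kyse410 32 were counted with shRNA and 20 with scramble. At this depth a level near the limit cannot be told from none, and reads lost to near-identical copies were not tested. Exons of other genes cover most exon bases of 7 of the 71 genes and of 5 of the 175 members. In the run of 6 genes from ZNF433 to ZNF625 this held for 3. Reads fitting more than 1 gene were set aside, and their part in the low counts was not tested.

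**Figure D1:**
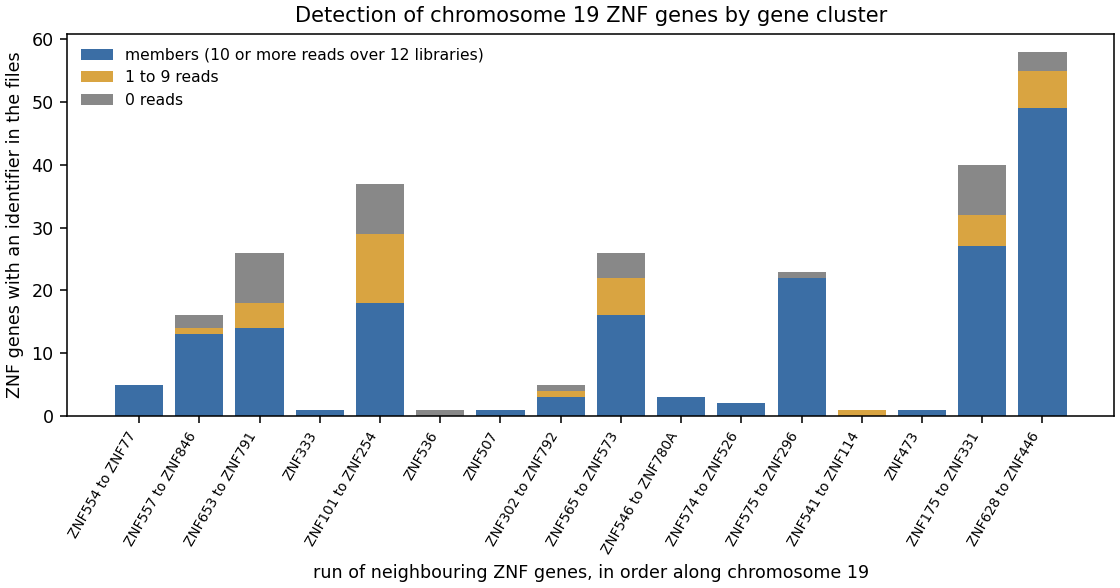
Bars give the number of chromosome 19 ZNF genes in each run of neighbouring ZNF genes (starts less than 1 Mb apart), in order along the chromosome, with members in blue, genes of 1 to 9 reads in yellow and genes of 0 reads in grey; ZNF114 is not drawn. The run from ZNF101 to ZNF254 holds 18 members and 19 genes under 10 reads, while the run from ZNF628 to ZNF446 holds 49 members and 9 such genes.

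A list of 10 genes described as methylated in tumours was followed whatever its values. ZNF471, ZNF667 and ZNF677 had no read, and ZNF577 and ZNF582 had 1 read each. ZNF132, ZNF154, ZNF382 and ZNF671 had 93, 45, 45 and 32 reads over the 12 libraries, too few to enter the test. ZNF154 had 17 reads in TE10 with shRNA against 6 with scramble, and 14 against 8 in Kyse410. ZNF382 had 5 against 2 reads in TE10 and 17 against 21 in Kyse410. ZNF132 had 21 against 31 and 19 against 22, and ZNF671 had 6 against 2 and 13 against 11, so the list went both ways. ZNF331, an imprinted gene that is silenced in gastrointestinal tumours, was the only member of the list with enough reads. It read 12.3, 11.1 and 8.58 CPM in the scramble libraries of TE10 and 13.4, 9.07 and 11.01 with the shRNA, and the groups overlapped. In Kyse410 it read 34.0, 34.5 and 35.4 with the scramble and 30.1, 25.9 and 24.2 with the shRNA, and every shRNA library was lower (log2 change -0.37 ± 0.10 SE, adjusted p = 0.00127).

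Members were expressed at low levels. Their median was 5.71 CPM in TE10 scramble and 7.23 CPM in Kyse410 scramble, with 29 and 23 of 175 under 1 CPM and 2 and 7 over 50 CPM. Per kilobase of exon the highest member in both lines was ZNF146, a protein of zinc fingers alone, at 33.1 CPM per kb in TE10 and 45.9 in Kyse410. It was followed by ZNF787 at 16.4 and 20.4 CPM per kb. ZNF428 (12.2), ZNF317 (9.53) and ZNF865 (8.16) came next in TE10, and ZNF317 (17.9), ZNF580 (14.8) and ZNF358 (11.9) in Kyse410. ZNF317 carries a KRAB domain, and a KRAB sequence was not found in the other 6 of these. The retrotransposon repressor ZNF91 stood far lower, at 0.406 and 0.459 CPM per kb. ZNF91 read 3.36, 4.64 and 4.66 CPM in TE10 scramble, 4.33, 4.47 and 4.64 in TE10 with shRNA, 4.96, 4.90 and 4.45 in Kyse410 scramble and 5.201, 4.42 and 4.12 in Kyse410 with shRNA. Its libraries overlapped in both lines, with log2 changes of 0.08 ± 0.22 (SE) and -0.05 ± 0.20.

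Of the 175 members, 153 had enough reads to be tested, and the other 22 had at most 17 reads in any library. A gene is called below at an adjusted p under 0.05 over the 16060 genes tested with edgeR's quasi-likelihood test. Between the scramble controls 88 members were called, 70 higher and 18 lower in Kyse410, where 73.7% of all genes tested were called, 36.7% higher and 37.1% lower. The members' median log2 difference was 0.28, against 0.00 over all genes. It was 0.24 over the coding ZNF genes elsewhere (92 higher, 44 lower of 200). Over the other coding genes of chromosome 19 it was 0.19 (356 higher, 245 lower of 747). A higher median in Kyse410 was thus shared with both sets. Summed over members, the level was 2329 ± 33.0 CPM in Kyse410 and 1680 ± 20.5 in TE10, a value 38.7% higher without a test. Without TMM scaling the members' sums were 2394 and 1616 CPM, 48.1% apart. With it, the coding ZNF genes elsewhere summed to 6770 CPM in Kyse410 and 5402 in TE10, a value 25.3% higher.

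Among members at 1 CPM or more, the largest differences included neighbours on the short arm. ZNF699 read 13.4, 13.5 and 9.10 CPM in Kyse410 scramble and 1.29, 3.21 and 2.54 in TE10 scramble (log2 difference 2.33 ± 0.24, adjusted p = 2.07e-12). ZNF554 read 12.8, 14.8 and 15.4 CPM against 3.10, 3.09 and 3.28 (2.17 ± 0.17, adjusted p = 3.60e-16). Its neighbour ZNF555 followed with 10.6, 13.3 and 11.8 against 2.84, 2.73 and 2.75 (2.09 ± 0.20, adjusted p = 1.22e-13). The libraries of the lines did not overlap for any of the 3. ZNF497 (2.31), ZNF627 (1.85), ZNF524 (1.83), ZNF136 (1.79) and ZNF331 (1.71) made up the rest of the 8 largest log2 differences upward among members that averaged 1 CPM or more across the 6 scramble libraries. ZNF780B lay under that limit, with 38 reads in Kyse410 scramble and 3 in TE10 scramble, and its difference was called too (adjusted p = 0.000228). ZNF497 shares 45.3% of its exon bases with other genes, so its reads are uncertain. In the other direction ZNF296, in which no KRAB sequence was found, had 3.01, 2.96 and 3.69 CPM in Kyse410 and 8.01, 7.96 and 8.68 in TE10 (-1.35 ± 0.19, adjusted p = 7.96e-09). ZNF708 (-1.29), ZNF100 (-1.07), ZNF587B (-0.94), ZNF552 (-0.87), ZNF813 (-0.85), ZNF765 (-0.84) and ZNF841 (-0.59) were the others lowest in Kyse410.

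In TE10 more members rose than fell with the UHRF1 shRNA. Of 153 tested, 39 rose and 20 fell (59 called, 38.6%), where 38.8% of all genes tested were called, 18.8% higher and 20.0% lower. The share called was thus near the background, with 25.5% higher and 13.1% lower. The median log2 change was 0.11, against 0.00 over all genes, -0.02 over 200 coding ZNF genes elsewhere (35 higher, 45 lower) and 0.19 over 747 other coding genes of chromosome 19 (322 higher, 73 lower). Members' rises ran from 0.21 to 1.57 and their falls from -0.12 to -1.82 in log2 change, and 5 passed 2-fold each way. The largest rise was that of ZNF480, with 3.31, 3.32 and 1.06 CPM under the shRNA and 0.775, 1.07 and 0.741 under the scramble, and it is named after its values were seen, since its groups overlapped.

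ZNF772, a KRAB gene whose promoter is printed above, rose most among members with separate groups. It read 0.904, 0.832 and 1.91 CPM with the scramble and 3.82, 2.68 and 3.18 with the shRNA (log2 change 1.37 ± 0.35, adjusted p = 0.00154). All shRNA libraries lay above all scramble libraries. ZNF556 read 0.258, 0.594 and 1.06 CPM against 1.91, 1.41 and 1.33 (1.21 ± 0.49, adjusted p = 0.0453). With 17 and 36 reads in the groups, its call was lost in 10 of the alternatives run, DESeq2 among them (adjusted p = 0.115). ZNF296 rose from 8.01, 7.96 and 8.68 CPM to 12.98, 13.03 and 11.5 (0.60 ± 0.16, adjusted p = 0.00183). ZNF580, a protein with 3 fingers, rose from 12.8, 13.8 and 11.4 CPM to 19.1, 20.3 and 17.5 (0.59 ± 0.12, adjusted p = 3.90e-05). ZNF460 (1.04), ZNF525 (0.79), ZNF235 (0.63) and ZNF841 (0.61) completed the largest rises.

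The deepest fall in TE10 was that of ZNF555. It read 2.84, 2.73 and 2.75 CPM with the scramble and 0.763, 1.15 and 0.398 with the shRNA (-1.82 ± 0.35, adjusted p = 2.76e-05). ZNF14 fell from 6.46, 5.47 and 5.19 CPM to 2.16, 1.53 and 2.25 (-1.51 ± 0.24, adjusted p = 7.36e-07). Both are KRAB genes of the short arm, and their groups were well apart. ZNF558 had more reads behind it and fell from 22.6, 23.1 and 21.1 CPM to 11.3, 11.4 and 9.55 (-1.04 ± 0.12, adjusted p = 2.15e-10). ZNF30 (-1.22), ZNF443 (-0.99), ZNF426 (-0.92), ZNF780A (-0.87) and ZNF180 (-0.77) were the other largest falls without overlap between the groups. ZNF699 was called as well (-1.08 ± 0.40, adjusted p = 0.0260), but its groups overlapped, with 1.29, 3.21 and 2.54 CPM under the scramble and 1.65, 1.53 and 0.133 under the shRNA. In ZNF30 and ZNF443 the levels were at most 2.38 CPM, and their calls were lost in 5 and 7 alternatives.

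In Kyse410 falls outnumbered rises. Of 153 members 8 rose and 52 fell (60 called, 39.2%), where 49.3% of all genes tested were called, 22.6% higher and 26.7% lower. The median log2 change was -0.16, against -0.03 over all genes, -0.17 over the ZNF genes elsewhere (23 higher, 85 lower of 200) and 0.10 over the other coding genes of chromosome 19 (267 higher, 137 lower of 747). A lower median was shared with ZNF genes on other chromosomes. Falls ran from -0.23 to -1.97 in log2 change and 17 passed 2-fold, while no rise did. The summed level of the members was 1846 ± 21.8 CPM with the shRNA and 2329 ± 33.0 with the scramble, a change of -20.7% without a test. In TE10 it was 1781 ± 34.4 and 1680 ± 20.5 CPM, a change of 6.01%. The coding ZNF genes elsewhere summed to 5893 CPM with the shRNA and 6770 with the scramble in Kyse410, a change of -12.9%. In TE10 their sums were 5426 and 5402 CPM, a change of 0.448%.

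ZNF14 fell furthest in Kyse410, from 14.6, 15.2 and 14.4 CPM to 3.10, 3.93 and 4.23 (-1.97 ± 0.16, adjusted p = 6.06e-15). ZNF555 fell from 10.6, 13.3 and 11.8 CPM to 3.29, 3.60 and 3.25 (-1.80 ± 0.18, adjusted p = 3.75e-12). These were the deepest falls of named members in TE10 too. ZNF823 fell from 3.58, 3.77 and 4.26 CPM to 1.09, 1.06 and 1.30 (-1.74 ± 0.28, adjusted p = 6.06e-07). ZNF136, a KRAB repressor, fell from 15.8 CPM in each scramble library to 5.57, 5.24 and 6.29 (-1.48 ± 0.15, adjusted p = 2.64e-12). ZNF791, described for its high level and chosen after its values were seen, fell from 60.5, 64.0 and 59.98 CPM to 25.1, 25.2 and 26.2 (-1.27 ± 0.08, adjusted p = 5.79e-20). ZNF14, ZNF555, ZNF823 and ZNF136 were named by a rule that asks for groups without overlap, and the groups of ZNF791 did not overlap either. ZNF383 (-1.65), ZNF44 (-1.47), ZNF700 (-1.45) and ZNF780A (-1.45) were the other largest falls. ZNF146, the most abundant member, fell from 189.4, 194.6 and 187.4 CPM to 118.7, 126.6 and 132.1 (-0.60 ± 0.05, adjusted p = 2.86e-16), and in TE10 by a log2 of -0.12 ± 0.05 (adjusted p = 0.0481), a call lost in 11 alternatives.

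The 8 rises in Kyse410 were smaller. ZNF772 rose again, from 1.95, 1.63 and 0.853 CPM to 2.83, 2.46 and 3.69 (0.98 ± 0.31, adjusted p = 0.00804). ZNF446 rose from 8.13, 9.49 and 9.19 CPM to 14.2, 12.4 and 15.6 (0.66 ± 0.14, adjusted p = 6.26e-05), and in TE10 its groups overlapped (-0.11 ± 0.16). Exons of other genes cover 58.5% of ZNF446, those of ZNF324 on the same strand among them, and the strand setting of the counting is not given in the sources used here, so its reads are uncertain. ZNF615 (0.54), ZNF813 (0.52), ZNF784 (0.41), ZNF254 (0.37) and ZNF358 (0.23) followed, and each lost its call in 3 to 6 alternatives. ZNF865 was the eighth (0.22), with groups that overlapped. With DESeq2 the number of rises was 2, and with each library left out in turn it lay between 3 and 10.

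**Figure D2:**
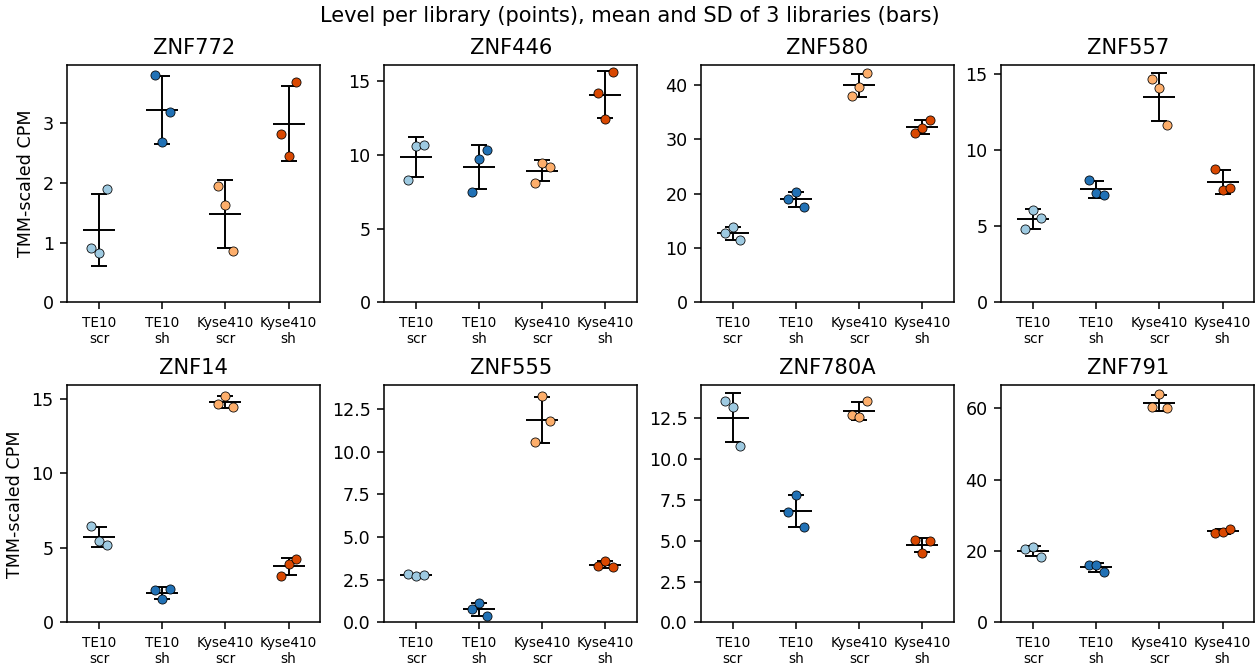
Each panel plots TMM-scaled CPM of 1 member by library (points) with the mean and SD of 3 libraries (bars), for TE10 and Kyse410 with scramble (scr) or UHRF1 shRNA (sh). ZNF772 is higher with the shRNA in both lines, ZNF580 and ZNF557 are higher in TE10 and lower in Kyse410, and ZNF14, ZNF555, ZNF780A and ZNF791 are lower in both.

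In all, 28 of the 153 members (18.3%) were called in both lines and 62 (40.5%) in neither, beside 23.9% and 35.8% of all genes tested. Of the 28, 18 fell in both lines (11.8% of members and 9.03% of all genes tested). Only ZNF772 rose in both (0.654%, against 6.96% of all genes). A rise in TE10 with a fall in Kyse410 was called in 9 (5.88%, against 4.29%), and the reverse in 0, against 3.63% of all genes. The 18 shared falls were 90.0% of the members' 20 falls in TE10 and 34.6% of their 52 falls in Kyse410, where these shares were 45.2% and 33.8% over all genes. No test was made of members against other genes. They include ZNF266, which fell from 26.1, 28.1 and 29.01 CPM to 17.7, 14.8 and 18.7 in TE10 (-0.70 ± 0.10) and from 40.4, 46.2 and 44.8 to 27.3, 26.3 and 25.1 in Kyse410 (-0.74 ± 0.08). The others were ZNF14, ZNF30, ZNF83, ZNF136, ZNF146, ZNF180, ZNF260, ZNF426, ZNF554, ZNF555, ZNF558, ZNF559, ZNF562, ZNF627, ZNF699, ZNF780A and ZNF791. Across the 153 members the responses had a Pearson r of 0.51 and a Spearman rho of 0.43, a description over genes that share the libraries of each line.

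**Figure D3:**
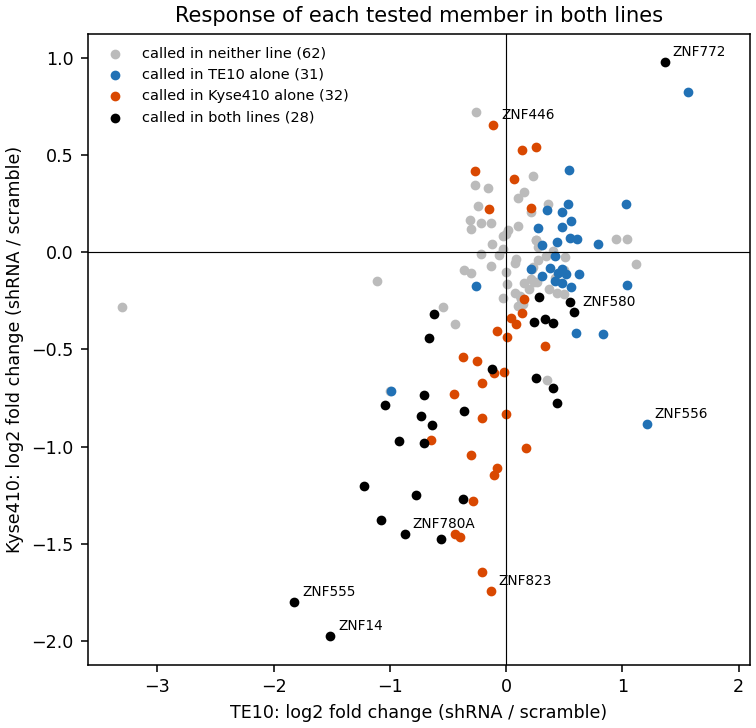
Each point is 1 of the 153 tested members, with its log2 change (shRNA over scramble) in TE10 on the x axis and in Kyse410 on the y axis, coloured by the line in which it was called. ZNF14 and ZNF555 lie at the lower left and ZNF772 at the upper right, and the point at the far left is ZNF780B (-3.31 ± 1.98 in TE10, not called), which had no read in TE10 with shRNA.

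The difference between the responses (Kyse410 minus TE10) was tested directly. It was called for 48 members, 3 positive and 45 negative, where 38.9% of all genes tested were called, 19% positive and 19.9% negative. The median difference was -0.36 in members, -0.01 over all genes, -0.12 over ZNF genes elsewhere and -0.07 over other coding genes of chromosome 19. The 9 members that rose in TE10 and fell in Kyse410 (ZNF45, ZNF274, ZNF317, ZNF473, ZNF551, ZNF557, ZNF580, ZNF584 and ZNF628) were all among the 45. They had been picked by opposite calls in the same model, so this adds no separate support.

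ZNF274, a KRAB protein that brings SETDB1 and histone H3 lysine 9 trimethylation to the ends of other zinc finger genes, read 31.5, 30.8 and 29.8 CPM in TE10 scramble and 37.1, 36.0 and 35.3 with the shRNA (0.24 ± 0.08, adjusted p = 0.0136). In Kyse410 it read 75.9, 78.8 and 78.1 CPM and 62.0, 61.2 and 58.2 (-0.36 ± 0.06, adjusted p = 1.62e-06). The groups were separate in each line and the responses went in opposite directions (difference -0.60 ± 0.10, adjusted p = 2.42e-06). The lines lay closer together with the shRNA than with the scramble. ZNF473, a factor in the processing of histone messenger RNA, rose from 33.2, 34.6 and 34.5 to 47.1, 51.2 and 51.7 CPM in TE10 and fell from 45.9, 44.0 and 44.1 to 37.8, 37.9 and 36.5 in Kyse410 (difference -0.81 ± 0.10, adjusted p = 8.18e-09). ZNF317 rose from 47.3, 49.2 and 48.3 to 60.6, 57.5 and 55.5 CPM in TE10 and fell from 89.5, 92.2 and 90.8 to 64.0, 57.5 and 51.9 in Kyse410 (difference -0.91 ± 0.10, adjusted p = 2.68e-11). After the shRNA the levels of ZNF317 in the lines overlapped, which those of the scramble libraries did not. ZNF557 rose from 4.78, 6.06 and 5.51 to 8.02, 7.16 and 7.03 CPM in TE10 and fell from 14.6, 14.1 and 11.7 to 8.76, 7.37 and 7.48 in Kyse410 (difference -1.21 ± 0.23, adjusted p = 1.99e-05), though the rise in TE10 was at the threshold (adjusted p = 0.0483) and lost its call in 13 alternatives.

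The largest negative difference was that of ZNF556 (-2.09 ± 0.66, adjusted p = 0.00868), which rose in TE10 and in Kyse410 read 1.71, 1.12 and 1.42 CPM with the scramble and 0.274, 1.06 and 0.976 with the shRNA (-0.88 ± 0.43, adjusted p = 0.0879). ZNF823 (-1.61), ZNF383 (-1.44), ZNF653 (-1.26) and ZNF460 (-1.21) followed. In ZNF823 the TE10 libraries overlapped (-0.13 ± 0.23) and the difference came with the fall in Kyse410, whereas in ZNF653 it came with a rise in TE10 (0.84 ± 0.26) beside -0.42 ± 0.23 in Kyse410. The 3 positive differences were those of ZNF446 (0.76 ± 0.21, adjusted p = 0.00257), ZNF784 (0.68 ± 0.26, adjusted p = 0.0320) and ZNF865 (0.37 ± 0.12, adjusted p = 0.0151). DESeq2 called 1 positive difference.

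The median response was lower on the short arm than on the long arm in both lines. Members of the short arm, from ZNF554 to ZNF254, had a median log2 change of -0.17 in TE10 (5 higher and 13 lower of 42 tested) and -0.75 in Kyse410 (2 higher and 24 lower). The other coding genes of that arm had medians of 0.19 (183 higher and 39 lower of 381) and 0.10 (142 higher and 69 lower). Members of the long arm had medians of 0.21 in TE10 (34 higher and 7 lower of 111) and -0.11 in Kyse410 (6 higher and 28 lower), beside 0.18 and 0.10 in the 366 other coding genes there. Summed, the short arm members went from 409.1 ± 9.53 to 373.4 ± 11.8 CPM in TE10 and from 710.2 ± 15.3 to 442.8 ± 10.8 in Kyse410, and the long arm members from 1270 ± 21.97 to 1407 ± 22.7 and from 1619 ± 18.8 to 1404 ± 15.1. Of the 18 members that fell in both lines, 12 lie on the short arm. The arms were compared after earlier results were known, and no test was made between them.

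Within the short arm the clusters differed. In the cluster from ZNF557 to ZNF846, 10 of 12 tested members fell and 1 rose in Kyse410 (median -0.78), and in the cluster from ZNF653 to ZNF791, 9 of 11 fell and none rose (median -1.27). In the cluster from ZNF101 to ZNF254, which includes ZNF14 and ZNF91, 2 of 13 fell and 1 rose (median -0.02). Non-ZNF coding genes lying within the first of these clusters had a median of 0.27 in Kyse410, with 13 higher and 3 lower of 27. On the long arm, 3 clusters held most of the rises of TE10, and also most of the 111 tested members. In TE10 6 of 17 members were higher from ZNF575 to ZNF296, 9 of 26 from ZNF175 to ZNF331 and 17 of 45 from ZNF628 to ZNF446. In each of the 3 clusters 1 was lower (medians 0.33, 0.25 and 0.25). Of the other coding genes of the long arm, 38.0% were higher in TE10. The cluster from ZNF565 to ZNF573 had no rise in either line, and 2 and 7 of its 14 members fell in TE10 and Kyse410.

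**Figure D4:**
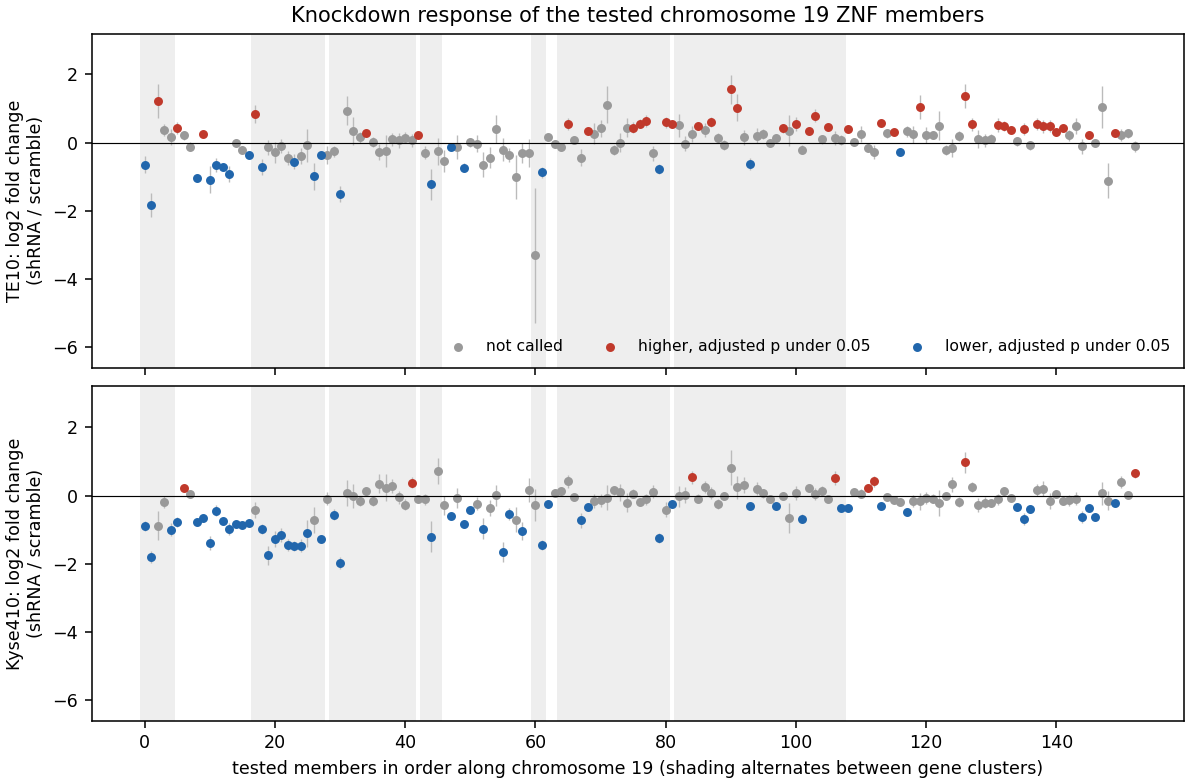
Each point is a tested member in order along chromosome 19, with its log2 change (shRNA over scramble) and SE, for TE10 above and Kyse410 below, red for a called rise, blue for a called fall and grey otherwise; shading alternates between clusters. In Kyse410 the falls crowd the left end, where 24 of the 42 short arm members fell, and in TE10 the rises lie mostly to the right, where 34 of the 111 long arm members rose.

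Protein and promoter features were set beside the responses as descriptions. A KRAB A box was found in 146 of the 175 members, and the median number of fingers was 12. The 124 tested members with the box had 29 rises and 16 falls in TE10 (36.3% called) and 5 and 43 in Kyse410 (38.7%). The 29 without it had 10 and 4 in TE10 (48.3%) and 3 and 9 in Kyse410 (41.4%). Over all genes tested 38.8% were called in TE10 and 49.3% in Kyse410. The search misses diverged boxes. The number of CG pairs in the promoter had a Pearson r of 0.01 with the response in TE10 and 0.06 in Kyse410 over 139 members, given as a description. The CCAATCA motif followed the clusters. It was in 11 of 13 promoters from ZNF653 to ZNF791, where 8 of its 9 tested carriers fell in Kyse410, and in 15 of 15 from ZNF101 to ZNF254, where 2 of 12 fell. In the cluster from ZNF557 to ZNF846, where 10 of 12 members fell, none of 12 promoters held it. Exons of another gene overlap 102 members. The 112 tested members with under 10% of their bases overlapped gave 28 rises and 17 falls in TE10 (40.2% called) and 6 and 42 in Kyse410 (42.9%).

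Cofactors of KRAB proteins moved in both directions. In a list of 28 cofactors and methylation enzymes, 8 rose and 7 fell in TE10 (53.6% called, against 38.8% of all genes tested). In Kyse410 7 rose and 11 fell (64.3% called, against 49.3%). UHRF1, the target of the hairpin, is on the list and among the falls in each line. TRIM28, the corepressor that KRAB domains bind, rose from 525.8 ± 3.32 to 662.0 ± 7.67 CPM in TE10 (0.33 ± 0.04, adjusted p = 9.01e-10) and from 171.8 ± 14.0 to 210.1 ± 7.42 in Kyse410 (0.29 ± 0.04, adjusted p = 1.96e-07). SETDB1 stood at 52.0 ± 2.49 and 54.0 ± 2.58 CPM in TE10 and fell from 70.8 ± 1.14 to 54.4 ± 6.12 in Kyse410 (-0.37 ± 0.07, adjusted p = 4.13e-06). DNMT1 rose in both, by 0.19 ± 0.04 and 0.25 ± 0.04. At baseline TRIM28 was lower in Kyse410 than in TE10 (-1.61 ± 0.04, adjusted p = 1.35e-36). Of the 153 members 70 (45.75%) were higher there and 18 lower, where 36.7% of all genes tested were higher. Among coding ZNF genes elsewhere 46.0% were higher, and among the other coding genes of chromosome 19 47.66%. A link between TRIM28 and the members was not tested.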

How the data were processed

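The deposited files hold raw read counts per gene, 1 file per library, with whole numbers that HTSeq wrote, as its counters at the end of each file show. Per the submitters' processing notes, bcl2fastq 2.19, HISAT2 2.1.0, HTSeq 0.9.1 and DESeq2 were used with the build GRCh37.p13. Which annotation release and strand setting were used is not given in the sources used here. Reads without a feature were 42.9 to 44.7% of a library and stayed out of all totals.

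Gene identifiers were given symbols from GENCODE release 29, of another build, so positions serve only for order along the chromosome. Of 57820 identifiers 52339 matched, holding 99.0% of the gene reads. ZNF8 and ZNF229 did not match, and UHRF1 was named by hand from ENSG00000034063. Counts of all genes were filtered by filterByExpr, scaled by TMM and fitted with edgeR 4.0.16 (R 4.3.3, limma 3.58.1) by the quasi-likelihood test, 1 model holding all 12 libraries, a mean for each group and 8 residual degrees of freedom. Benjamini-Hochberg adjustment ran over all 16060 genes. Errors are SE for log2 changes and SD of 3 libraries for levels. The fit was tested on simulated data.

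Members and lists were chosen with earlier results of these data known. Named members were, per knockdown contrast, the 8 largest called changes each way with a mean of at least 1 CPM and no overlap of groups. For the lines' difference they were the 6 largest called each way, between controls the 8 largest, per line the 5 highest per kb, and 17 genes taken whatever their values. Clusters are runs of ZNF genes with starts less than 1 Mb apart. The KRAB A box was W..L...Q..LY..V with at least 5 of its 6 letters. Fingers were counted as 2 cysteines and 2 histidines with a spacer of 12 residues. Promoters came from RefSeq. Replicate chi-square per degree of freedom was 1.57 to 2.92. Alternatives were other scalings, DESeq2 1.42.0, other filters, a replicate block, fits on 6 libraries and leaving out each library. The limit that a count of 0 allows covers counting error only.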

Additional observations from a re-analysis of the deposited data

Results flagged for a closer look

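The responses of 48 members to the UHRF1 shRNA differed between the lines by edgeR's test of the difference itself. They were 31.4% of the 153 members tested, a smaller share than the 38.9% of all genes tested. Among the members taken by the rule for named members, the log2 difference (Kyse410 minus TE10) was called and negative for 19. ZNF556 had the largest, -2.09, then ZNF823 with -1.61, ZNF383 with -1.44, ZNF653 with -1.26, and ZNF460 and ZNF557 with -1.21 each. ZNF44 had -1.07, ZNF296 -1.02, ZNF700 -1.01, ZNF136 -0.92, ZNF317 -0.91 and ZNF580 -0.90. ZNF525 had -0.75, ZNF235 -0.74, ZNF274 -0.60, ZNF780A -0.57, ZNF146 -0.48, ZNF331 -0.45 and ZNF787 -0.43. The 3 called and positive were ZNF446 with 0.76, ZNF784 with 0.68 and ZNF865 with 0.37. Of the other members mentioned, ZNF551 had -1.10, ZNF791 -0.90, ZNF473 -0.81, ZNF628 -0.77, ZNF45 -0.68, ZNF584 -0.51 and ZNF562 -0.45. ZNF136, ZNF146 and ZNF780A fell in both lines and fell further in Kyse410, and for ZNF446 the overlap with exons of other genes was not tested as a part of the result.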

How the results depend on the processing

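DESeq2 called 2 rises in Kyse410 in place of 8 and 1 positive difference in place of 3. The summed level without TMM scaling was 1711.1 and 1615.8 CPM in TE10 with shRNA and scramble and 1929.6 and 2393.7 in Kyse410. Leaving out each library in turn gave 41 to 59 called members in TE10 (27 to 39 higher, 13 to 20 lower), 51 to 61 in Kyse410 (3 to 10 higher, 46 to 52 lower), 41 to 45 for the difference (1 to 3 positive, 38 to 43 negative) and 80 to 90 between controls (64 to 71 higher, 15 to 20 lower). The lowest TE10 count of falls, 13, came without shRNA library 3. Rises in Kyse410 numbered 5 without shRNA library 1, 3 without shRNA library 3, 5 without scramble library 2 and 4 without scramble library 3. Positive differences numbered 1 without Kyse410 scramble library 1. Of 1582 values of single members under the alternatives, 1474 stayed on their side of the threshold with the same sign, 97 lost their call and 11 changed sign, none of them called. Their log2 changes without each library in turn ran, in TE10, from -0.062 to 0.212 for ZNF331, -0.612 to 0.059 for ZNF383, -0.013 to 0.141 for ZNF428, -0.214 to 0.050 for ZNF446, -0.259 to 0.031 for ZNF823 and -0.054 to 0.157 for ZNF91, and in Kyse410 from -0.259 to 0.078 for ZNF428 and -0.153 to 0.0081 for ZNF91. The sign also changed for ZNF331 in TE10 without shRNA library 1 (-0.040) and for ZNF428 in Kyse410 with upper quartile scaling (0.011) and without shRNA library 2 (0.065). The cause was not tested. Libraries with the same replicate number did not deviate together (r -0.01 to 0.04), and with the number as a replicate block 57, 60, 49 and 87 members were called in TE10, Kyse410, the difference and the controls, ZNF557 in TE10 losing its call (adjusted p = 0.0539). Members at few reads are limited by depth.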
